A study of Homo sapiens with 6 samples.

Results

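The genes described here are 9 neighbours on chromosome 4, AMTN, AMBN, ENAM, ODAM, OPRPN (formerly PROL1), MUC7, SMR3A, SMR3B and UTP3. They were chosen from 22412 measured genes because AMTN and OPRPN were known to differ strongly between the groups of these data. Each had 1 probe set on the array, so the choice of the brightest probe set per gene decided nothing. The data are 6 single-colour human transcriptome arrays of SKOV3, an established human ovarian carcinoma cell line, grown in McCoy's 5A medium with 10% serum. The 3 control arrays came from SKOV3 cells stably carrying the empty pLKO vector, and the 3 knockdown arrays from SKOV3 cells stably carrying the shSND1-#2 hairpin in that vector. SND1 encodes a multifunctional coactivator with nuclease-like and tudor domains that binds RNA, and the series asks which transcripts change when it is depleted. Only 1 hairpin is represented, and the labels do not say whether either line is a clone or a pool. The title of 1 knockdown array (replicate 1) carries an additional number that is not explained.

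Secretory calcium-binding phosphoproteins are an extracellular protein family that arose by repeated gene duplication. Its acidic branch acts in bone and dentin, and its branch rich in proline and glutamine acts in enamel, milk and saliva. In teeth, ameloblasts secrete ENAM and AMBN into the enamel matrix and later AMTN and ODAM into the basal lamina that joins epithelium to enamel. OPRPN, SMR3A and SMR3B encode precursors of short secreted peptides of salivary and lacrimal glands, and MUC7 encodes a small salivary mucin. UTP3 lies beside these genes but encodes a nucleolar protein of ribosome assembly, so the label of a secreted phosphoprotein cluster covers the other 8 and not UTP3.

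The promoters of AMTN and OPRPN, which differed most between the groups, are shown with that of SMR3B, which was also lower in every knockdown array, and that of UTP3, whose groups overlapped. Each line gives the 250 bases before the RefSeq start of the gene on the plus strand of GRCh38.p14, at chr4:70518319-70518568 for AMTN, chr4:70397690-70397939 for OPRPN, chr4:70382881-70383130 for SMR3B and chr4:70688282-70688531 for UTP3. Capitals mark CAGACA on either strand, the short sequence that SMAD proteins bind.
AMTN: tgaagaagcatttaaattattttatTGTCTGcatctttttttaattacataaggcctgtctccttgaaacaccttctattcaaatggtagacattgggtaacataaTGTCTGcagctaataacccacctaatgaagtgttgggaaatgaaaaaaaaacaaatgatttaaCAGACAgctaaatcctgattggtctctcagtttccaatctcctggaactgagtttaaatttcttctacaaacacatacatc
OPRPN: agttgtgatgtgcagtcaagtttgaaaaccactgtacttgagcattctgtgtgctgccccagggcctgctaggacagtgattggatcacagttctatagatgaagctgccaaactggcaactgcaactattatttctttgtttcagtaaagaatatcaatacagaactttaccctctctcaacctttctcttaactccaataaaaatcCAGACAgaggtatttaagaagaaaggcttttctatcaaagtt
SMR3B: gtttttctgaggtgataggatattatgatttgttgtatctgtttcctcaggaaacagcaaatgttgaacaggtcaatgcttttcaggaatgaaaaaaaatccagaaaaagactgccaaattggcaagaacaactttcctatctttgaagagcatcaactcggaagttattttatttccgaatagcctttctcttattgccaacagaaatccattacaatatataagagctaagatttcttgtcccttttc
UTP3: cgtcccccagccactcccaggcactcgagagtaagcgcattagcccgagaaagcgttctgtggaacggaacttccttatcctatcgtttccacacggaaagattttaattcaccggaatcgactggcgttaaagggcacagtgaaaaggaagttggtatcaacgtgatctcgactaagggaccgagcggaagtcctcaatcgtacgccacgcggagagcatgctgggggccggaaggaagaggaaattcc

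RefSeq promoters were matched for 8 of the 9 genes, all but SMR3A, so SMR3A enters none of the sequence comparisons. AMTN held 3 copies of CAGACA, at bases -225 to -220, -144 to -139 and -81 to -76 before the start, and OPRPN held 1 at -42 to -37. ODAM, which stayed dim in both groups and differed by -0.17, also held 1, at -97 to -92. Of 35116 RefSeq promoters of this length 13.6% held the sequence at least once and 0.162% at least 3 times. The count of 3 is the number found in AMTN, and no such share was computed for any other motif. The median promoter is also richer in G and C than that of AMTN (58% against 33.2%). These shares therefore do not measure how rare the copies before AMTN are. On both strands 7 other motifs were searched: the TATA box TATAAA (in 10.7% of all promoters), RUNX TGTGGT (11%), AP-1 TGANTCA (6.57%), STAT TTCNNNGAA (6.57%), FOXO GTAAACA (2.98%), the E-box CAGGTG of SNAI and ZEB factors (17.5%) and homeobox TAATTG (6.7%). None of these 7 was found in the windows of AMTN, OPRPN, SMR3B, ENAM or UTP3. ODAM held an AP-1 match at -83 to -77. MUC7 held TATAAA at -30 to -25 of its first listed start and -29 to -24 of its last, a RUNX match before its middle and its last start, and a homeobox match before its last. AMBN held 2 STAT matches, at -206 to -198 and -10 to -2, and 2 homeobox matches, at -177 to -172 and -115 to -110. A match is only a description of the sequence.

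The UTP3 promoter differed in composition, with 53.6% G and C and 20 CpG pairs. AMTN had 33.2% G and C, OPRPN 39.2% and SMR3B 34.4%, with 0, 0 and 2 CpG pairs. The median promoter had 58% and 11 pairs. Among 51 pairs of promoter windows from different genes of the cluster, SMR3B and OPRPN held the best-scoring gapless stretch (1 for each match, -2 for each mismatch). Its score was 13, and the median over the pairs was 8. SMR3B also shared stretches scoring 12 with AMTN and with ENAM, whose groups overlapped. No score for unrelated promoters was computed, so the best score does not set this pair apart. The stretch of SMR3B and OPRPN spans 28 bases, of which 23 are identical. It lies at -66 to -39 in SMR3B and -68 to -41 in OPRPN, where its end overlaps CAGACA. Capitals mark the bases identical in both.
SMR3B: CCTTTCTCTTAttgCCAAcAgAAATCCA
OPRPN: CCTTTCTCTTAactCCAAtAaAAATCCA

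Values are log2 expression as deposited, and differences are knockdown minus control. SND1 itself read 8.83, 8.60 and 8.80 in controls and 5.88, 5.70 and 5.99 after knockdown, so the labels and the targeted gene go together (log2 difference -2.89 ± 0.09 SE, limma adjusted p = 1.3e-06). That probe set also covers SND1-IT1. In this 2-sided moderated fit, adjusted over all 22412 genes, 32% of genes passed the threshold of 0.05, 15.9% higher and 16.1% lower, and "rose" and "fell" are used of such genes only. The background range is that of 23 background control probe sets, whose means ran from 2.38 to 6.28 (median 3.11). Its upper end is that of the single brightest, so genes within the range can read well above the typical background probe set. Of all genes 60.8% had a control mean at or below 6.28. A fold whose dimmer group did not exceed 6.28 is a lower bound against 6.28, written "at least", and for genes with neither group above it only the log2 difference is given. Such genes are called background-range genes. All folds rest on the deposited log2 scale, whose exact construction is unknown. The ovarian carcinoma and epithelial markers PAX8 (12.30 ± 0.03 in controls, SD, n = 3), KRT7 and SOX17 lay above this range in both groups, whereas WT1, EMX2 and WFDC2 did not. Of 12 measured markers of this kind 3 rose and 5 fell (median -0.05), among them EPCAM (log2 difference 2.92), FOLR1 (-1.81), KRT8 (-1.39) and MUC16, whose mean went from 6.53 to 4.53. Of 20 measured markers of leukocytes, endothelium, fibroblasts and other cells, 19 were background-range genes, CD68 was above the range with a difference of -0.01, and 1, PDPN, fell within the range. Their summed linear signal ran from 1160 to 1240 over control arrays and from 1140 to 1230 over knockdown arrays, of which CD68 made up 77.8% to 79.9%. The other 19 together summed to between 250 and 257 over control arrays and between 242 and 256 over knockdown arrays.

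AMTN, encoding amelotin, stood far above background in control cells and was lower in every knockdown array. Its control arrays read 14.42, 14.87 and 14.71, and its knockdown arrays 8.14, 8.54 and 8.33. All 3 knockdown arrays lay below all 3 controls, with 5.88 log2 units between the nearest arrays. The group means were 14.66 ± 0.23 and 8.34 ± 0.20 (SD, n = 3 each), a log2 difference of -6.33 ± 0.14 (SE) or 80.3-fold. The knockdown mean was still 2.05 log2 units above the highest background control, so AMTN signal remained measurable after knockdown. In RNA from bulk cultures, fewer cells with the transcript and less transcript per cell cannot be told apart. As AMTN was chosen for this difference, no test is given for it or for any other gene of the cluster.

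OPRPN, encoding the precursor of the peptide opiorphin, was likewise lower in every knockdown array. It read 9.71, 10.53 and 10.27 in controls and 4.27, 4.11 and 4.13 after knockdown. The nearest arrays of the groups lay 5.44 log2 units apart. Means were 10.17 ± 0.42 and 4.17 ± 0.09 (SD, n = 3 each), a log2 difference of -6.00 ± 0.19 (SE) or at least 14.8-fold. The knockdown mean lay 2.11 log2 units below the highest background control, so unlike that of AMTN its remaining level was not told apart from background.

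**Figure D1:**
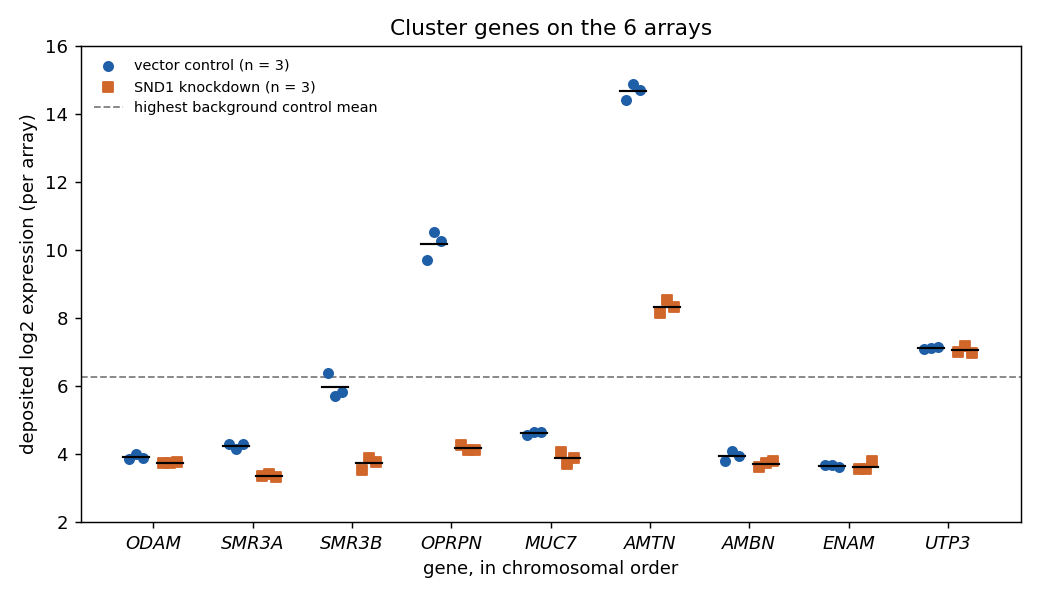
Deposited log2 expression (vertical axis) of the 9 cluster genes in chromosomal order, with circles for the 3 control arrays, squares for the 3 knockdown arrays, bars for group means and a dashed line at 6.28, the highest background control mean. AMTN and OPRPN separate by more than 5 log2 units, while UTP3 overlaps and most other genes lie below the dashed line.

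SMR3A, SMR3B and MUC7, the peptide precursor and mucin genes on either side of OPRPN, were also lower in every knockdown array than in every control array. SMR3B read 6.40, 5.70 and 5.84 in controls and 3.54, 3.89 and 3.76 after knockdown, with means of 5.98 ± 0.37 and 3.73 ± 0.17 (SD, n = 3 each). Its difference of -2.25 ± 0.18 (SE) lay within the background range by group means, although the first control array alone exceeded 6.28. SMR3A read 4.31, 4.14 and 4.30 in controls against 3.35, 3.42 and 3.34, a difference of -0.88 ± 0.06 (SE). SMR3A and SMR3B are close paralogs, and whether their probe sets separate the transcripts was not tested. MUC7 read 4.57, 4.66 and 4.64 in controls against 4.05, 3.72 and 3.88, a difference of -0.74 ± 0.08 (SE). Both SMR3A and MUC7 lay wholly below 6.28, so their values show an ordered difference in dim signal and no fold.

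The enamel matrix genes next to AMTN stayed dim in both groups. AMBN, encoding ameloblastin, read 3.79, 4.08 and 3.95 in controls against 3.63, 3.73 and 3.81, with overlapping groups and a difference of -0.22 ± 0.09 (SE). ENAM, encoding enamelin, read 3.69, 3.68 and 3.61 against 3.56, 3.56 and 3.79, also overlapping, at -0.02 ± 0.07 (SE). ODAM, at the other end of the cluster, read 3.86, 4.02 and 3.89 against 3.74, 3.75 and 3.76, a difference of -0.17 ± 0.06 (SE) with 0.09 log2 units between the nearest arrays. The signal of all 3 lay more than 2 log2 units below the highest background control in both groups, though above the background median of 3.11. Whether these readings reflect transcript or background cannot be told from these values.

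UTP3 was the only gene of the cluster besides AMTN with both group means above 6.28. It read 7.08, 7.13 and 7.16 in controls and 7.01, 7.17 and 6.97 after knockdown. The groups overlapped, and the difference of -0.07 ± 0.06 (SE) was smaller than the spread of 0.11 (SD) among knockdown arrays.

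Of the 9 genes, 6 were lower in every knockdown array than in every control array, against 21.9% of all genes. With a log2 difference of -1 or less there were 3, AMTN, OPRPN and SMR3B, against 2.44% of all genes. The median difference of the 9 was -0.74, and that of all genes 0.003. These counts describe genes picked on this contrast, and nothing is read from them.

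**Figure D2:**
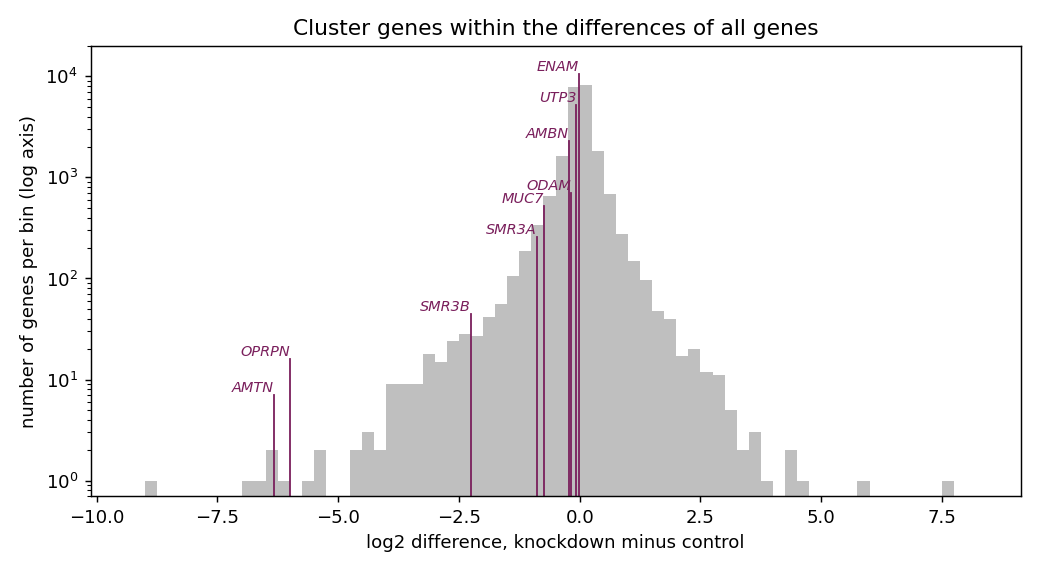
Number of genes per bin of 0.25 log2 units (vertical log axis) against the log2 difference, knockdown minus control, over 22412 genes, with lines at the 9 cluster genes (line heights carry no value). AMTN and OPRPN lie in the sparse left tail, SMR3B at -2.25, and ENAM, UTP3, ODAM and AMBN near the centre.

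Within a group the cluster genes did not share 1 order of arrays. Among controls, replicate 1 gave the lowest reading of AMTN and OPRPN (0.25 and 0.46 log2 units below their group means) but the highest of SMR3B (0.42 above). Among knockdown arrays, replicate 1 gave the lowest AMTN (0.20 below its mean) and the highest OPRPN (0.10 above). These deviations are small beside the differences of AMTN, OPRPN and SMR3B between groups.

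Over the 6 arrays the genes with the highest Pearson's r with AMTN were NMT2, PLK2, PCNX4, BCAT1 and MOSPD1 (r of 0.9998 to 0.9999). Those for OPRPN were PALLD, CLU, ARHGAP29, XYLT1 and PIGT (0.9996 to 0.9999). Because the arrays form 2 separate groups, r here mostly follows the step between groups and is only a description. The sizes of that step differed: PLK2, encoding a polo-like kinase, differed by -3.20 from a control mean of 13.84, BCAT1, encoding a branched-chain aminotransferase, by -2.32, PALLD, encoding the actin-binding protein palladin, by -1.99, and PIGT by -0.47.

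The genes around and between these 9 were compared in the same limma fit. Between the 9 genes lie 4 further measured genes, CSN3, encoding kappa-casein, CABS1, JCHAIN, encoding the immunoglobulin joining chain, and FDCSP, encoding a small secreted peptide of the same family. All 4 were background-range genes. FDCSP read 4.44, 4.45 and 4.59 in controls and 3.60, 3.86 and 3.86 after knockdown, and it fell within that range (log2 difference -0.72 ± 0.09 SE, adjusted p = 6e-04). CSN3, CABS1 and JCHAIN did not pass (adjusted p = 0.42, 0.15 and 0.44).

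Of the 15 measured genes before ODAM 5 fell and 0 rose (median -0.11), and of the 15 after UTP3 5 rose and 0 fell (median 0.03). At an unadjusted p under 0.05 in limma, 0 of the genes before were higher and 2 of the genes after, SLC4A4 and RNA5SP163, were lower. Together 10 of the 30 passed, a share close to the 32% of all genes. By direction, 16.1% of all genes fell and 15.9% rose. Among the 15 before ODAM only UGT2B7, encoding a steroid and drug glucuronidating enzyme, lay above background. It fell 1.53-fold (log2 difference -0.61 ± 0.08 SE, adjusted p = 0.00073). SULT1E1, the estrogen sulfotransferase gene, SULT1B1, UGT2B28 and UGT2B10 fell within the background range, by 0.44, 0.32, 0.26 and 0.34 on the log2 scale. The UGT genes are related in sequence, and whether their probe sets separate them was not tested. The casein and saliva genes nearer to ODAM, CSN1S1, CSN2, STATH and HTN1, did not pass and differed by -0.11 to -0.01.

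After UTP3, the nearest gene RUFY3, encoding an adaptor of vesicle transport, rose 1.39-fold (0.48 ± 0.06 SE, adjusted p = 0.00083). The next 3, GRSF1, MOB1B and DCK, lay above background and did not pass, with differences of 0.03, 0.00 and -0.05. COX18, encoding a cytochrome oxidase assembly factor, rose 1.71-fold, ANKRD17 1.15-fold, and RASSF6, encoding a Ras-association domain protein, 4.89-fold (2.29 ± 0.12 SE, adjusted p = 1.2e-05). ADAMTS3 rose by 0.22 within the background range. The calls of UGT2B10 and ADAMTS3 (adjusted p = 0.039 each) were not stable. UGT2B10 lost its call without control replicate 2 or 3 (adjusted p = 0.11 and 0.12), without knockdown replicate 1, 2 or 3 (0.11, 0.085 and 0.067) or with the mean over its 4 probe sets (0.067), and its adjusted p ran from 0.0045 to 0.12 across alternatives. ADAMTS3 lost its call without control replicate 1 or 3 (0.12 and 0.11), without knockdown replicate 1 or 3 (0.067 and 0.11) or with the replicate number as a block (0.079), and its adjusted p ran from 0.028 to 0.12 across alternatives.

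**Figure D3:**
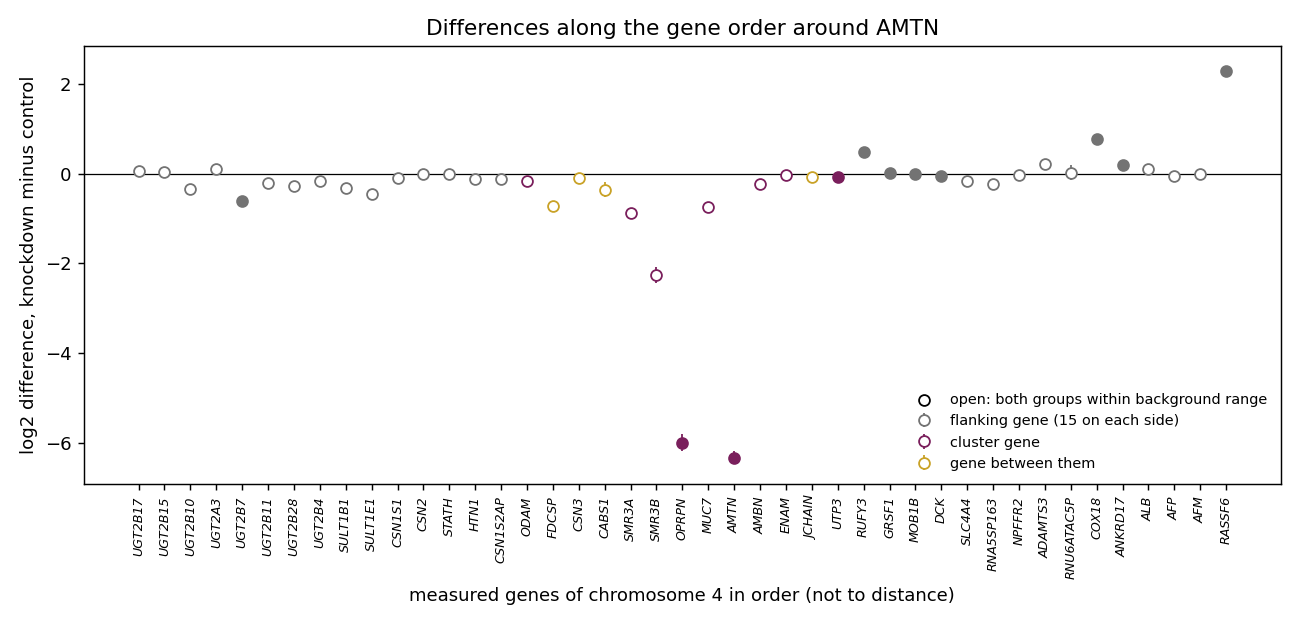
Log2 difference, knockdown minus control, with its standard error (often smaller than the point), for the cluster genes, the 4 genes between them and 15 measured genes on each side, in gene order and not to distance; open points mark background-range genes. OPRPN and AMTN lie lowest and SMR3B next at -2.25, while SMR3A (-0.88), MUC7 (-0.74) and FDCSP (-0.72) lie between these and the other neighbours, and RASSF6 at the far right stands at 2.29.

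Other genes of the family and their relatives were examined next. Of the 15 measured, 7 are genes between or before the cluster genes already described (FDCSP, CSN3, CABS1, CSN1S1, CSN2, STATH and HTN1), 7 lie elsewhere on chromosome 4, and SPARC lies on chromosome 5. Of these caseins, saliva peptides, acidic phosphoproteins and SPARC relatives, 3 rose and 2 fell (median -0.01), against 15.9% and 16.1% of all genes. Background-range genes made up 14 of the 15. The exception was SPP1, encoding osteopontin, an acidic phosphoprotein of bone and of carcinoma cells. SPP1 read 14.72, 14.19 and 14.28 in controls and 15.94, 16.07 and 16.02 after knockdown, a 3.05-fold rise (1.61 ± 0.13 SE, adjusted p = 1e-04) with no overlap. IBSP, encoding bone sialoprotein, rose by 0.79 ± 0.08 (SE, adjusted p = 0.00027) and SPARCL1 by 0.47 ± 0.06 (adjusted p = 0.0013), both within the background range. SPARC, encoding the matrix protein osteonectin, fell by 0.57 within it (adjusted p = 8.7e-05), as did FDCSP. The dentin genes DSPP and DMP1 and the bone gene MEPE did not pass.

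Genes of enamel formation outside the cluster, 17 of them measured, numbered 5 that rose and 2 that fell (median 0.01). The shares of all genes were 15.9% and 16.1%. WDR72, which ameloblasts need for enamel maturation, rose at least 2.31-fold (2.79 ± 0.08 SE, adjusted p = 1.1e-06), and the integrin gene ITGB6 rose 5.75-fold. SLC10A7 rose 2.02-fold and the magnesium transport gene CNNM4 1.76-fold. FAM83H rose at least 1.19-fold. TUFT1, encoding tuftelin, fell at least 1.85-fold (-1.08 ± 0.09 SE, adjusted p = 0.00011), and ROGDI fell 1.21-fold (adjusted p = 0.021). ROGDI lost its call without knockdown replicate 3 (adjusted p = 0.07) or with the replicate block (0.054), which left 1 fallen gene in the list, and its adjusted p ran from 0.013 to 0.07 across alternatives. The defining ameloblast genes AMELX, MMP20 and KLK4, encoding amelogenin and the enamel proteases, were background-range genes, with control means of 3.84, 3.63 and 3.62. Beside AMTN, the ameloblast matrix genes AMBN, ENAM and ODAM and these 3 were all dim in SKOV3 cells. FAM20C, encoding the kinase that phosphorylates secreted proteins of this family, had a control mean of 6.48 and differed by -0.08 ± 0.05 (SE), which does not pass.

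In the list of attachment epithelium, the cells in which AMTN protein is known to sit at the tooth surface, 4 of 8 measured genes rose and 2 fell (median 0.22). Over all genes 15.9% rose and 16.1% fell. The hemidesmosome integrin genes ITGB4 and ITGA6 rose 3.64-fold and 1.41-fold, and the keratin gene KRT5 rose 5.36-fold (2.42 ± 0.14 SE, adjusted p = 1.9e-05). KRT14, the partner of KRT5, fell by 0.68 within the background range. CD151 fell 1.34-fold. KRT19 rose 1.2-fold, a call lost without control replicate 1 or 2 (adjusted p = 0.083 and 0.085), without knockdown replicate 1, 2 or 3 (0.057, 0.074 and 0.052) or with the replicate block (0.053; 0.0058 to 0.085 across alternatives).

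Transcription factors tied to these promoters or to ameloblasts moved in both directions, 8 of 27 measured higher and 7 lower (median -0.04). Among all genes the shares were 15.9% higher and 16.1% lower. Background-range genes made up 15 of the 27, among them 4 of the 8 that rose and 2 of the 7 that fell. RUNX2, a regulator of bone and tooth genes, read 6.79, 7.02 and 7.06 in controls and 5.13, 5.01 and 5.02 after knockdown, and fell at least 1.6-fold (-1.91 ± 0.08 SE, adjusted p = 4.6e-06). FOXO1, a forkhead factor, rose at least 6.25-fold (2.67 ± 0.16 SE, adjusted p = 2.5e-05). JUN, an AP-1 subunit, fell at least 2.08-fold and the T-box gene TBX1 1.4-fold. SMAD3, named after its values were seen because its sequence CAGACA occurs before AMTN and OPRPN (and before ODAM), fell 1.2-fold from a control mean of 10.48 (adjusted p = 0.023), and SMAD4 did not pass (adjusted p = 0.62). The call of SMAD3 was lost without control replicate 1 or 3 or knockdown replicate 3 (adjusted p = 0.081, 0.074 and 0.052; 0.01 to 0.081 across alternatives). Whether any of these factors bears on AMTN was not tested.

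Salivary and lacrimal secretory genes outside the cluster were nearly all dim. Of 28 measured 27 were background-range genes, 2 rose and 0 fell (median 0.01), and 3, all higher, had an unadjusted p under 0.05 in limma. Of all genes 15.9% rose and 16.1% fell. The 2 that rose, SCGB1D1 and LTF, encoding lactoferrin, did so within the background range, by 0.47 and 0.29 (adjusted p = 0.02 and 0.021). SCGB1D1 lost its call without control replicate 2 or 3 or knockdown replicate 3 (adjusted p = 0.068, 0.07 and 0.055; 0.0043 to 0.07 across alternatives). LTF lost its call without control replicate 1 or 3 or with the replicate block (0.053, 0.075 and 0.05; 0.013 to 0.075 across alternatives). The exception above background, CST3, encoding the widely expressed inhibitor cystatin C, differed by 0.01 ± 0.08 (SE) and did not pass.

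UTP3 was set beside 35 measured genes of the small-subunit processome, the nucleolar complex in which it works. Of these 14 rose and 2 fell (median 0.10), against 15.9% and 16.1% of all genes. In this list 33 lay above background, whereas 60.8% of all genes had control means at or below 6.28. The number that rose went down to 9 without control replicate 3 and up to 16 without knockdown replicate 1. RRP9 rose 1.62-fold, WDR43 1.44-fold and MPHOSPH10 1.27-fold, while FBL, encoding the RNA methyltransferase fibrillarin, fell 1.58-fold (-0.66 ± 0.06 SE, adjusted p = 0.00014), as did NGDN, 1.42-fold. UTP3, at -0.07, lay below the median of this list.

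**Figure D4:**
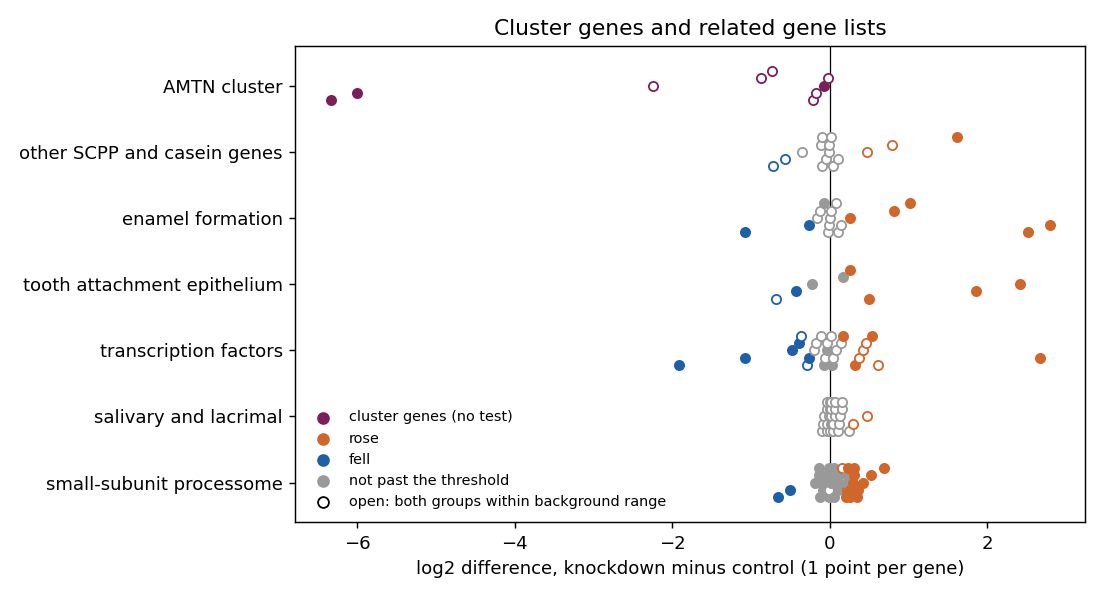
Log2 difference, knockdown minus control, of each cluster gene and of each measured gene in 6 related lists (1 point per gene, vertical scatter only for legibility); open points mark background-range genes. AMTN and OPRPN lie below -5, where no gene of the 6 lists falls, and the salivary and lacrimal list lies between -1 and 1.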

How the data were processed

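The authors deposited log2 expression values per probe set for 6 arrays, and the submitters' processing notes name RMA (background correction, quantile normalization and probe summary) with no version. The variant and the build are not given in the sources used here. Deposited log2 values reached 19.93, above the ceiling of a 16-bit scanner, so fold sizes depend on an unknown scale. Scanner files were not used here. Of 70523 probe sets 23781 carried 1 symbol. For 306 of them an old symbol was updated through synonyms in the RefSeq gene table of GRCh38.p14. The brightest probe set per gene left 22412 genes, including SND1, whose probe set carries 2 symbols. Gene order came from that table, and promoter sequences from RefSeq.

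The limma package (3.58.1, R 4.3.3) fitted differences by lmFit and eBayes, with neither covariate nor filter, with Benjamini-Hochberg adjustment over all genes and a threshold of 0.05. The fit was tried on simulated data with independent noise and large changes in a small share of genes. In the real data 32% of genes passed, many with small differences, so that trial does not vouch for these calls. The number of arrays limits the precision, and nothing in the labels names separate cultures, so the p-values cover spread between these arrays that may be technical. The members, gene lists and background rule were chosen with earlier results of these data known. The genes named were the members, SND1, genes between members, called genes among 15 on each side, up to 4 called genes of each list with the smallest p, and the 5 genes most like AMTN and like OPRPN. Others that illustrate a list were named after their values were seen. Alternatives were renewed quantile normalization, a filter on dim genes, the replicate number as a block, trended robust variance, the mean over probe sets and leaving out each array.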

Additional observations from a re-analysis of the deposited data

How the results depend on the processing

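Over renewed quantile normalization, the replicate block, the mean over probe sets and each array left out, the log2 difference ran from -6.45 to -6.23 for AMTN, from -6.23 to -5.82 for OPRPN, from -2.39 to -2.04 for SMR3B, from -0.93 to -0.85 for SMR3A and from -0.82 to -0.66 for MUC7. ENAM, from -0.10 to 0.02, had no settled sign, and UTP3 ran from -0.13 to -0.03. SND1 kept its direction and call under all 11 alternatives. Genes called over all genes ran from 5878 to 7219. Of 30 flanking genes 10 were called, and 6 when genes below the median of all probe sets were left out, where fewer genes were tested. Of the salivary and lacrimal genes 2 were called, but 1 with that filter, 1 with the replicate block and 0 to 2 with an array left out. Of 489 values of 45 other genes named as risen or fallen, 461 kept their call under the alternatives and 28 lost it, all for UGT2B10, ADAMTS3, SCGB1D1, LTF, ROGDI, KRT19 and SMAD3, and 0 reversed. The causes were not tested. Among same-numbered arrays the deviations from the group means correlated at -0.02, -0.036 and -0.061 across genes. Differently numbered arrays gave -0.032 to 0.072, so no deviation shared by number was seen. This cannot show whether same-numbered arrays were handled together, and the number of knockdown replicate 1 was assumed. With the replicate block 6232 genes were called in place of 7166. Most of the cluster lay within the background range, which limits what its smaller differences show.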
